A study of Mus musculus with 2 samples.

Results

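The regions described here are the Prrc2a RIP-seq peaks that lie within introns of protein-coding genes and were called in replicate 1 but not in replicate 2. Prrc2a RIP-seq recovers RNA with an antibody to Prrc2a and sequences it, and a peak is a stretch of the genome where the immunoprecipitate was enriched over a control. Both replicates were whole brain from C57BL/6J males, wild type and 4 weeks old, and no other genotype, treatment or age was measured. The protocol pooled the brains of 3 mice in a lysate, and the study describes the replicates as biological. A replicate 1 peak was selected when it overlapped no replicate 2 peak, overlapped no exon of any GENCODE M21 gene and had its midpoint within the span of a protein-coding gene. Of the 36800 peaks of both lists, 3596 met these conditions, which is 19.8% of the 18129 peaks of replicate 1.

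Prrc2a is an RNA-binding protein described as a reader of m6A, the methylated adenosine that is laid down mostly in the core motif GGAC and lies mainly in coding sequence and 3′ UTRs of mature mRNA. Introns are present in the unspliced transcript and are removed in the nucleus. Many of the longest introns lie in genes expressed in neurons, such as those of adhesion molecules, receptors and channels of the synapse.

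Of all replicate 1 peaks, 53.8% overlapped no replicate 2 peak. Of the 3907 replicate 1 peaks within introns, 92% overlapped none, and the other 311 were shared. Absence from the replicate 2 list was itself the selection, so these shares describe the lists and were not tested. By the mirrored rule, 834 of the 18671 replicate 2 peaks were intronic and overlapped no replicate 1 peak, or 4.47% of that list. Each side of this comparison is 1 library, and peaks of a library are not replicates, so differences between the sets are given without a test. The number of reads behind each list is not in the files used here, and how far depth contributed to the difference in number was not tested.

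The selection turned on overlap with a replicate 2 peak. Just inside the rule, a peak in Kirrel3 lay 2 bases from a replicate 2 peak, one in Dlgap1 lay 5 bases away and one in Ergic1 8 bases away. Their fold enrichments were 3.75, 4.00 and 5.71. Just outside it, intronic peaks in Zfp369, Crtac1 and Dpp9 overlapped a replicate 2 peak by 3, 16 and 28 bases, with replicate 1 fold enrichments of 2.30, 4.74 and 1.63. Few of the selected peaks were so close to the limit. Only 238 (6.62%) had a replicate 2 peak within 1 kb, the median distance to the nearest one was 26.4 kb, and 68.2% lay more than 10 kb from any.

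As examples, the most enriched peak of at most 300 bp is printed for each of the 5 genes that held the most. The most enriched of that width in any gene follows. These are not typical members, since their fold enrichments all exceed the upper quartile of the set (4.82). Each sequence is the mm10 reference of RefSeq read 5′ to 3′ on the strand of the host gene, with GGAC in capitals. The lists give no strand, so the strand of the RNA itself is not known. The regions are in Rbfox1 (chr16:5935770-5936012, plus strand, fold enrichment 6.88), Opcml (chr9:28043015-28043293, plus, 7.65), Celf2 (chr2:7358381-7358652, minus, 6.49), Grin2b (chr6:136159858-136160139, minus, 7.75), Grin2a (chr16:9855639-9855923, minus, 6.29) and Fmn1 (chr2:113332048-113332338, plus, 10.8).
Rbfox1: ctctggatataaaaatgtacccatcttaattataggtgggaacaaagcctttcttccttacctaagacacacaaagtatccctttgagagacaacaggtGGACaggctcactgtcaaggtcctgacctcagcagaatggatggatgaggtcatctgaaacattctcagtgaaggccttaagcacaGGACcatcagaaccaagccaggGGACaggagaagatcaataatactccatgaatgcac
Opcml: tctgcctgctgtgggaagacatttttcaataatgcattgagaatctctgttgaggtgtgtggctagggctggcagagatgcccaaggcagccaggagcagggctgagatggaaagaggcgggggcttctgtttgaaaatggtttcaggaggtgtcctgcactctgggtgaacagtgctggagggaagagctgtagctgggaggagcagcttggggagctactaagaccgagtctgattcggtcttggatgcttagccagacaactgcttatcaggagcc
Celf2: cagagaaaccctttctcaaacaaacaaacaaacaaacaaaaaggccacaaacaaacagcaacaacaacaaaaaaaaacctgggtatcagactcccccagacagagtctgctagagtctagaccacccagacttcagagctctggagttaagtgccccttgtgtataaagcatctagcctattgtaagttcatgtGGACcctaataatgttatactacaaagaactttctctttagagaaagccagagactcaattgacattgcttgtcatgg
Grin2b: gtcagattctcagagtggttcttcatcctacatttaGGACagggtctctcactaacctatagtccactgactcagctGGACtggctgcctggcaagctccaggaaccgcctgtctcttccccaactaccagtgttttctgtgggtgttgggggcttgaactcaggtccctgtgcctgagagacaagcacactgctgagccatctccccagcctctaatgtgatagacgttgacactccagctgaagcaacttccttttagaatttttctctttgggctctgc
Grin2a: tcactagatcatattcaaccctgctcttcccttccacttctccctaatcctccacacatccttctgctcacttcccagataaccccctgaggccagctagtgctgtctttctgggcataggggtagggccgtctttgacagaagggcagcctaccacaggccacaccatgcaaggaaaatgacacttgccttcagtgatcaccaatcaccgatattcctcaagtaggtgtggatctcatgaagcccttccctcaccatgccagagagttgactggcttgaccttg
Fmn1: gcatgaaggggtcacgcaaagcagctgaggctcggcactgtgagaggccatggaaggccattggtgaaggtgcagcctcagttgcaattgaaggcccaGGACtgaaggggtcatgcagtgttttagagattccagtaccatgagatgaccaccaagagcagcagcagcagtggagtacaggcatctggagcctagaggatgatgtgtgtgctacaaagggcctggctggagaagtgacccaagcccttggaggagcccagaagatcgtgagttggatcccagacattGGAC
All 6 lay between exons, at distances from 4217 bases (Fmn1) to 58306 bases (Grin2a) from the nearest one. GGAC occurred 3 times in the Rbfox1 region, 2 times in each of the Grin2b and Fmn1 regions and once in the Celf2 region, and the Opcml and Grin2a regions held none.

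The selected peaks lay in 556 protein-coding genes, or 2.74% of the 20265 genes with at least 200 exon-free bases. They were concentrated in few of them. While 266 genes held a single peak, 81 genes held 10 or more, and these 81 held 2531 peaks (70.4%). The leading 5 genes held 662 peaks (18.4%). The 5 leading genes of the replicate 2 only set held 10.2% of its peaks, and those of the shared set 10.3%.

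Rbfox1, which codes for a splicing regulator of neurons, held the most, with 167 peaks over a span of 1526 kb (chr16:5885355-7411526). Opcml, which codes for an adhesion molecule of the IgLON family, held 149 in 1135 kb (chr9:27790775-28925410). Celf2, whose product binds RNA and regulates splicing, held 127 in 969.9 kb (chr2:6539694-7509563). In these 3 genes replicate 2 had 4, 0 and 1 intronic peaks of its own, and 4, 2 and 3 replicate 1 peaks were shared.

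Grin2b and Grin2a, which code for the GluN2B and GluN2A subunits of the NMDA receptor, followed with 112 peaks (chr6:135713233-136173511) and 107 peaks (chr16:9567898-9995560). Both genes span less than 500 kb. Each held 1 replicate 2 only intronic peak, and Grin2a alone of the pair held a shared one. In their exons, 13 of the 14 exonic replicate 1 peaks of Grin2b and 17 of the 18 of Grin2a overlapped a replicate 2 peak. The genes were ranked by intronic peaks that replicate 2 lacked, so they were chosen on 1 side of this comparison. Why few of their intronic peaks were shared was not tested.

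Other genes with many were Dlgap2, Ntm and Csmd1 with 61 peaks each, and Kalrn with 53. Dlgap2 codes for a scaffold protein of the postsynaptic density and Ntm for another IgLON adhesion molecule. Csmd1 codes for a large transmembrane protein with CUB and sushi domains, and Kalrn for a guanine nucleotide exchange factor that acts in dendritic spines. The leading genes differed in their exonic peaks. Of those of replicate 1, 51 of 58 were shared in Csmd1, 5 of 10 in Kalrn and 0 of 7 in Celf2. Gria1, Phactr1 and Phactr3 held no exonic peak in replicate 1, while replicate 2 had 3, 2 and 0 there. Csmd1 and Kalrn held neither a shared nor a replicate 2 only intronic peak.

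**Figure D1:**
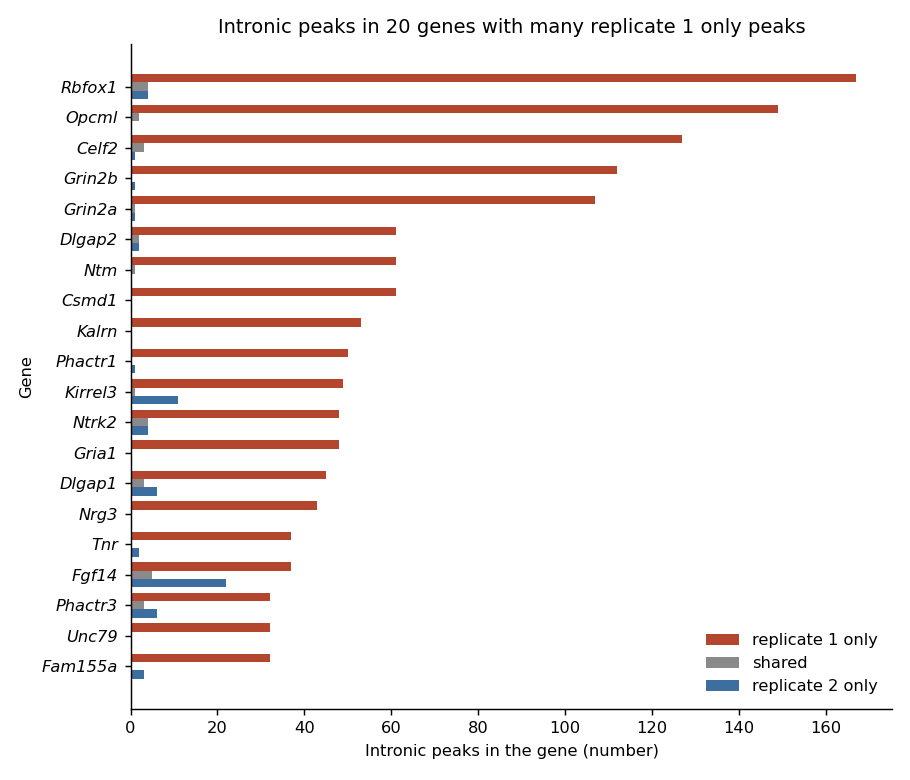
Number of intronic peaks (horizontal axis) in each of 20 genes with many replicate 1 only peaks (vertical axis), with replicate 1 only peaks in red, shared peaks in grey and replicate 2 only peaks in blue. Red bars run from 32 to 167 peaks, and Fgf14, with 22, has the longest blue bar.

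Among these 20 genes, replicate 2 only peaks were most numerous in Fgf14, a regulator of sodium channels, with 22 beside 37 of replicate 1, and in Kirrel3, an adhesion molecule, with 11 beside 49. Across all hosts, 176 of the 556 genes also held a replicate 2 only intronic peak, which is 31.7% of these hosts and 40.5% of the 435 genes that held such a peak. Of all genes, 2.15% did. Among genes of at least 200 kb, the share was 37.8% of the 254 hosts and 5.51% of the 744 others. A shared intronic peak was present in 114 hosts (20.5%). Neither kind was present in 330 hosts (59.4%), which held 1289 of the selected peaks (35.8%).

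Host genes were long. Their median span was 173 kb, against 20.1 kb for all genes with at least 200 exon-free bases and 113 kb for the hosts of replicate 2 only peaks. Of the 230 genes of 500 kb and more, 92 (40%) held a selected peak, and of the 15259 genes under 50 kb, 76 (0.498%) did. Length alone gives a longer gene more room, so the number was also set against exon-free sequence. The density rose from 0.704 peaks per Mb in genes under 50 kb to 1.67 at 50 to 100 kb, 1.99 at 100 to 200 kb, 5.86 at 200 to 500 kb and 7.80 at 500 kb and more. Replicate 2 only peaks showed no such rise, with 0.714 per Mb in the shortest class, 0.909 in the longest and none of the 5 classes above 0.936.

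Long span did not by itself mark a host. Of the genes of 500 kb and more, 138 held no selected peak, among them Dmd (2257 kb), Cntnap2 (2245 kb) and Lrp1b (2058 kb). Dmd and Lrp1b held 16 and 23 exonic peaks that both replicates shared, so both genes were represented in the lists. Over the hosts, Spearman's rank correlation between span and number of peaks was 0.37 (n = 556 genes of the same library, a description).

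Hosts also tended to carry exonic peaks. A shared exonic peak was present in 306 hosts (55.0%), against 12.2% of all genes. The same comparison was made among genes of at least 200 kb. Of 254 such hosts 65.8% had a shared exonic peak, and of 744 such genes without a selected peak 39.0% did. An exonic peak in replicate 2 was present in 83.9% and 55.7% of them.

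Per 100 kb of exon-free sequence, and among genes with at least 3 selected peaks, the densest was Pkd1, which codes for polycystin-1. It held 14 peaks, 48 per 100 kb, all in the first of 45 introns (chr17:24549834-24596508). Fold enrichments there ran from 2.69 to 4.89, and the peaks covered 44.0% of an intron of 13.7 kb. Noct, which codes for the circadian protein nocturnin, held 6 in the first of its 2 introns, or 42.6 per 100 kb, with fold enrichments from 2.71 to 4.16. The exon rule bore on this gene: the only replicate 2 peak within its span (fold enrichment 3.79) overlapped an exon of Gm38357, a gene annotated within the span of Noct, and so was not counted as intronic. Grin2a (26.1 per 100 kb) and Grin2b (25.8) followed.

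Introns were numbered from the 5′ end on a single transcript per gene, the protein-coding one with the longest coding sequence. On these transcripts 2880 of the selected peaks lay in an intron. The other 716 lay within the gene but outside that transcript, 659 of them upstream of its start, as in Rbfox1 (155 of 167), Opcml (134 of 149), Celf2 (62 of 127) and Kalrn (40 of 53). The statements on intron number and length cover the 2880.

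The introns that held them were few and, counted by peak, very long. Of 188713 introns, whose median length is 1333 bases, 645 held a selected peak, and 74 introns with 10 or more held 1688 peaks. The median length of the 645 introns was 44.7 kb, and 178 of them were longer than 100 kb. The values that follow count peaks, so introns with many peaks weigh more. The median peak lay in an intron of 127.1 kb (quartiles 49.8 and 230.1 kb). The corresponding medians were 45.7 kb for shared intronic peaks and 43.1 kb for replicate 2 only peaks. Introns longer than 100 kb held 57.7% of the selected peaks (1661; 95% Wilson interval 55.9 to 59.5%, which covers counting error only, and neighbouring peaks are not independent). Such introns make up 20.4% of the intronic bases of all protein-coding genes and 50.0% of those of the host genes. When each host gene was weighted by its number of peaks, they made up 44.2%, so within their own genes too the peaks lay in the longest introns more often than the bases do. Introns under 10 kb held 3.40% of the peaks and 35.4% of all intronic bases.

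**Figure D2:**
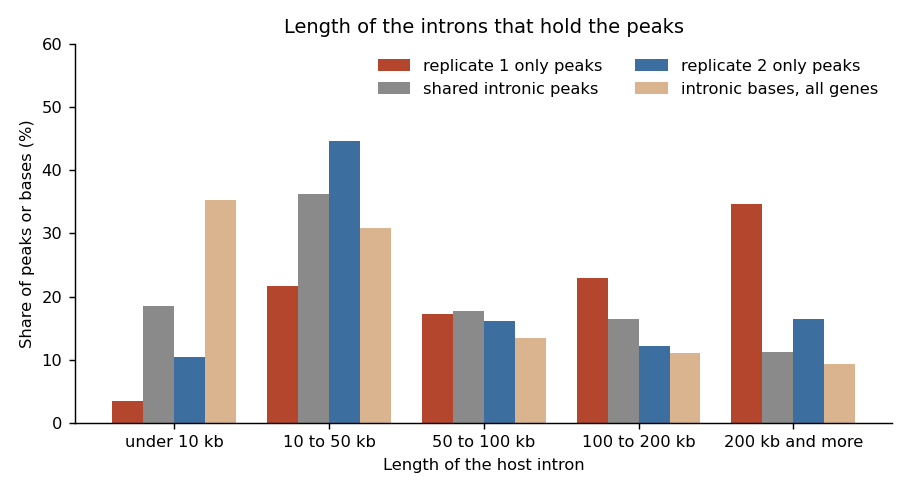
Share of peaks (red, replicate 1 only; grey, shared; blue, replicate 2 only) and of the intronic bases of all protein-coding genes (tan), in percent, by length of the host intron. Red bars rise to 34.7% in introns of 200 kb and more, where 9.34% of the bases lie, while grey and blue bars are highest at 10 to 50 kb.

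In some genes most peaks lay in a single intron, and in others they were spread over several. Grin2a held 105 of its 107 peaks in intron 3 of 13 (chr16:9761984-9992119, 230.1 kb), where they covered 21.5% of the intron and only 1 peak was shared. Grin2b held 62 peaks in intron 2 of 13 (chr6:136044320-136171415, 127.1 kb), which they covered to 37.1%, and a further 24, 14 and 11 in introns 3, 4 and 5. Gria1, which codes for the GluA1 subunit of AMPA receptors, held 47 of its 48 in intron 2 of 15. Intron 1 of Unc79, whose product is part of the NALCN channel complex, was the most densely covered of the introns with most peaks, with 31 peaks over 44.0% of its 41.8 kb. In Celf2, on its longest transcript, introns 3, 2, 4 and 1 held 46, 22, 21 and 17. Of the 117 hosts with at least 5 placed peaks and at least 2 introns, 69 had at least 90% of them in 1 intron.

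The extremes of intron length were of other kinds. The longest were intron 1 of Gm20388 (4384 kb, 8 peaks), intron 3 of Gm37240 (1245 kb, 4 peaks) and intron 1 of Kcnip4 (1015 kb, 16 peaks). Gm20388 and Gm37240 are gene models that overlap 73 and 7 other protein-coding genes, so a peak there is tied to its host less surely than elsewhere. Kcnip4 codes for a protein that binds potassium channels. The shortest were intron 30 of Ep400 (250 bases), intron 54 of Kmt2c (260 bases) and intron 13 of Depdc5 (270 bases). Each held 1 peak, which lay 4, 4 and 8 bases from an exon and had a fold enrichment of 3.34, 1.64 and 3.39. Ep400 and Kmt2c code for chromatin regulators and Depdc5 for an inhibitor of mTORC1 signalling.

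The first intron held 39.1% of the placed peaks (1126, 95% Wilson interval 37.3 to 40.9%, counting error only). The second held 28.5%, the third 13.5% and later introns 18.9%. First introns make up 26.3% of all intronic bases and, with each host gene weighted by its peaks, 30.5%. The weighted shares of the second, the third and later introns were 20.3%, 12.6% and 36.6%. Early introns thus held more of the peaks than of the sequence in the same genes. The share in the first intron was 40.1% for shared intronic peaks and 50.8% for replicate 2 only peaks. The last intron held 3.40% of the selected peaks against 9.48% of the shared ones.

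Within an intron, the peaks lay towards its 5′ end. In introns of at least 10 kb, 80.5% of 2782 peaks lay before the midpoint, and 39.4% lay in the leading 20% of the intron against 2.77% in the closing 20%. In steps of 10% of the intron the share fell from 20.4% at the 5′ end to 1.01% at the 3′ end. Without the 5 leading genes, 80.6% of 2476 peaks lay before the midpoint. Of the 132 introns of that length with at least 5 peaks, 116 had their median position before the midpoint. This position was not particular to the set: 77.2% of 189 shared and 75.4% of 659 replicate 2 only peaks lay before the midpoint too.

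**Figure D3:**
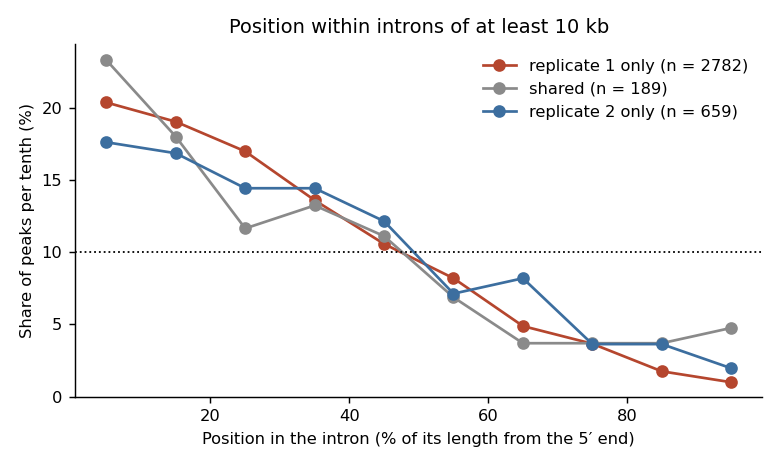
Share of peaks (vertical axis, percent) in successive steps of 10% of the length of the intron from its 5′ end (horizontal axis), for introns of at least 10 kb. Red, replicate 1 only (2782 peaks); grey, shared (189); blue, replicate 2 only (659); the dotted line marks an even spread of 10%. All 3 curves are higher at the 5′ end than at the 3′ end, and the red one falls from 20.4% to 1.01%.

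A similar fall was visible in introns of several leading genes. In intron 3 of Grin2a the peaks began at 2.46% and ended at 76.2% of the intron, and in intron 2 of Grin2b they ran from 0.54% to 61.8%. In Grin2b the peaks formed 4 runs, one behind the 5′ end of each of introns 2 to 5. In Rbfox1, numbered on its longest transcript, the run in intron 1 held 71 peaks and that in intron 4 held 62, with the median peak at 23.2% and 25.4% of the intron. Opcml differed, with 134 peaks in intron 1 of the longest transcript and the median at 48.1%. There a group of peaks began behind an exon of another transcript, inside that intron. Unc79 differed too, since the peaks of its intron 1 ran from 1.03% to 97.7% of the length.

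**Figure D4:**
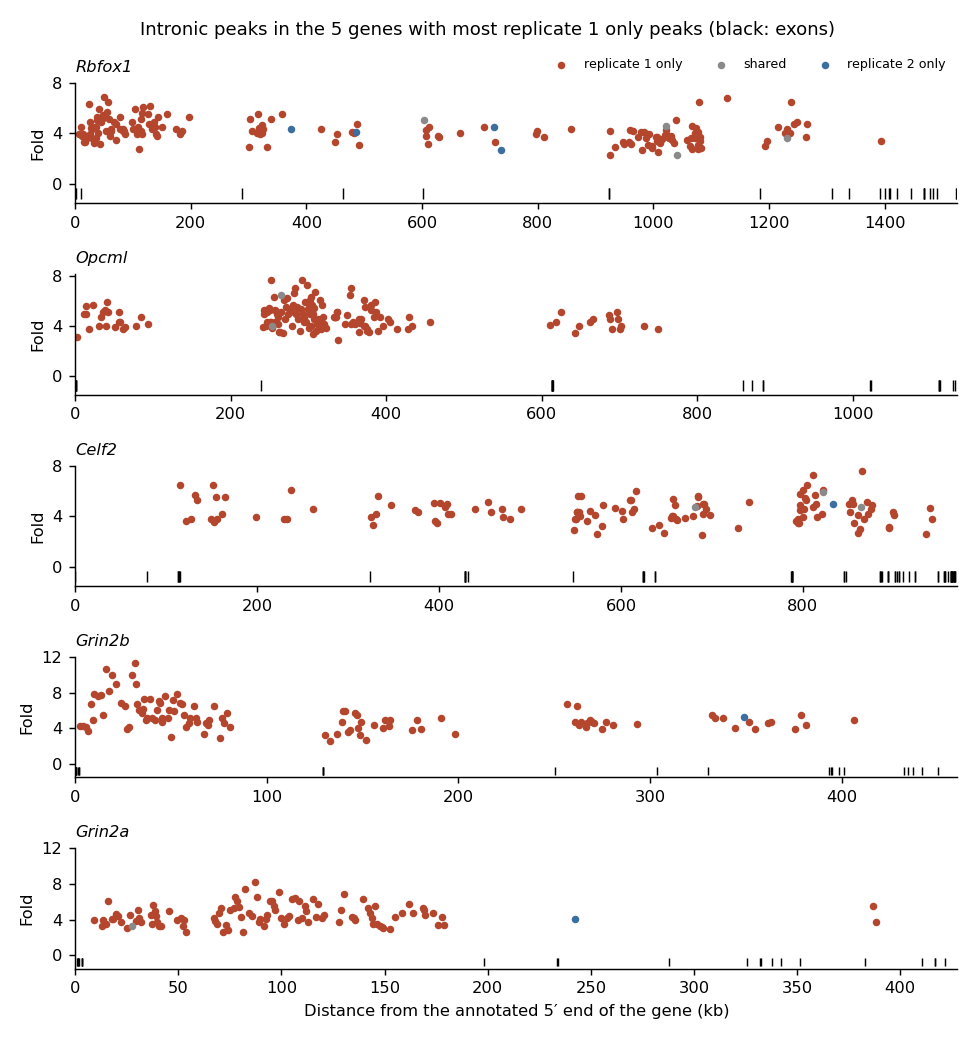
Fold enrichment (vertical axis) of each intronic peak against its distance from the annotated 5′ end of the gene (horizontal axis, kb) in the 5 genes with most replicate 1 only peaks. Red points are replicate 1 only, grey points shared and blue points replicate 2 only; black marks are exons of any transcript. Runs of red points begin behind exons and thin out before the next one, most plainly in Grin2b.

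The selected peaks lay far from exons. The median distance to the nearest exon was 11.2 kb, and 52.7% lay more than 10 kb from any, against 16.4% of the shared and 26.5% of the replicate 2 only intronic peaks. Under 1 kb from an exon lay 331 peaks (9.21%, 95% Wilson interval 8.30 to 10.2%, counting error only). The share was 35.7% for shared and 19.3% for replicate 2 only peaks. Of the exon-free bases of the host genes, each weighted by its peaks, 14.1% lie under 1 kb from an exon. The closest peaks were in Vps13c and Eif4g3, each 2 bases from an exon. Exons of the RefSeq annotation, which was not used in the selection, overlapped 362 of the selected peaks (10.1%), 13.8% of the replicate 2 only peaks and 37.9% of the shared ones.

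Fold enrichment, the ratio of immunoprecipitate to control that the peak caller gave, had a median of 4.18 (quartiles 3.64 and 4.82, range 1.29 to 12.8). It is on a linear scale. The median was 4.06 for replicate 2 only and 3.45 for shared intronic peaks. Exonic peaks of replicate 1 were lower, with medians of 2.57 for those of replicate 1 alone and 2.29 for the shared ones. The control is not named, and whether intronic and exonic fold enrichments are comparable was not tested. Only 21 of the selected peaks had a fold enrichment under 2.

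The 10 most enriched peaks lay in 5 genes. The highest, at 12.8, was in intron 2 of D5Ertd579e, a gene of unknown function, 653 bases from an exon (chr5:36630444-36630815). Grin2b held 6 of the 10, all in intron 2 and between 9.01 and 11.3. The others were in intron 1 of Fmn1 (10.8), which codes for an actin-binding formin, in intron 3 of Gm37240 (10.0) and in intron 2 of Pcnx4 (9.05), a member of the pecanex family.

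**Figure D5:**
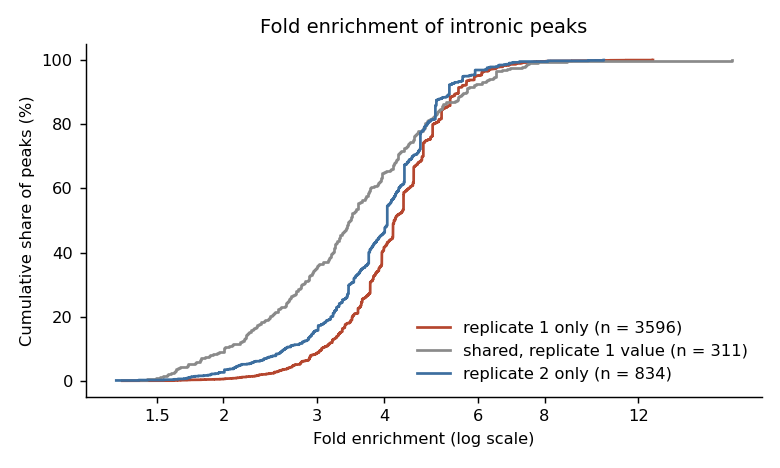
Cumulative share of intronic peaks (vertical axis, percent) by fold enrichment (horizontal axis, log scale): red, 3596 replicate 1 only peaks; grey, 311 shared peaks with their replicate 1 value; blue, 834 replicate 2 only peaks. The red and blue curves lie close together, with medians of 4.18 and 4.06, and the grey curve lies to the left of both below a fold of 4.

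Many peaks had the very same value. Fold enrichments carried by at least 10 replicate 1 peaks were found for 2424 of the selected peaks (67.4%), and the 10 commonest values covered 34.3% of them. The commonest was 4.55 (170 peaks), followed by 4.35 (161). The share with a value carried by at least 10 peaks of the same list was 29.3% for shared and 48.9% for replicate 2 only intronic peaks. The selected peaks had 1019 distinct values in all, and peaks that carry the same value cannot be ranked among themselves.

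The peaks had a median width of 291 bases against 395 for the shared and 254 for the replicate 2 only intronic peaks. At the smallest width in the lists, 200 bases, were 258 peaks (7.17%), against 13.7% of the replicate 2 only peaks, and 70 (1.95%) were wider than 1 kb. The widest, 2528 bases, lay in intron 2 of Grin2b, as did 2 more of the 5 widest. Peaks often lay next to each other. Of the 3330 peaks that shared a gene with another, 47.6% lay within 1 kb of the next and 87.8% within 10 kb.

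Among gene lists, the longest brain genes held the most selected peaks and the glutamate receptors the most per Mb. Of 30 long brain genes 17 (56.7%) held a selected peak, against 2.74% of all genes and 40% of genes of 500 kb and more. The list held 610 peaks, or 14.5 per Mb of exon-free sequence. The density was 3.74 per Mb over all protein-coding genes and 7.80 per Mb in genes of 500 kb and more. Rbfox1 (167), Opcml (149), Csmd1 (61) and Ntm (61) led this list and held most of its peaks, followed by Nrg3 with 43. The density of the list thus rests mainly on these leading genes. Of 26 glutamate receptor genes, of median span 298.3 kb, 8 (30.8%) held 285 peaks, or 31.3 per Mb. Of genes of 200 to 500 kb, 21.1% were hosts, with 5.86 peaks per Mb. Grin2b, Grin2a and Gria1 (48) accounted for 267 of the 285, and Grm5, a metabotropic receptor, followed with 6. The lists were drawn up with earlier results of these data known, so their counts are a description.

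Of 15 GABA receptor genes 3 (20%) held 44 peaks, or 15.5 per Mb, 25 of them in Gabbr2. Of 18 genes of voltage-gated calcium channels 8 (44.4%) held 65, or 15.4 per Mb, led by Cacna1e (24) and Cacna2d3 (23). Of 35 genes of synaptic adhesion 11 (31.4%) held 74, or 3.34 per Mb, near the density over all genes. Nrxn3 held 27 of them and Tenm4 10. The median span of this list is 616.3 kb, and genes of 500 kb and more held 7.80 per Mb, with 40% of them hosts. Of 47 genes of axon guidance 7 (14.9%) held 41, or 3.66 per Mb, led by the ligand gene Slit3 (22) and the receptor gene Plxna4 (14). The median spans of the GABA receptor, calcium channel and axon guidance lists are 102.4, 144.5 and 154.4 kb. Of genes of 100 to 200 kb, 8.37% were hosts, with 1.99 peaks per Mb.

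Cell type markers were measured in the same way, as genes with or without a peak, to be read against the 2.74% of all genes and the 3.74 peaks per Mb. Of 14 marker genes of neurons 4 (28.6%) held a selected peak, 5.24 per Mb, with 4 peaks in Rbfox3 and 2 in Syt1. Beside its 8 selected peaks this list held 7 replicate 2 only intronic peaks, 5 of them in Rbfox3. Rbfox3 and Syt1 span 421.8 and 513.3 kb, and 21.1% and 40% of genes in their length classes were hosts. Of 13 marker genes of astrocytes only Slc1a2, the glial glutamate transporter, held a selected peak (7.69%), with 22 peaks or 8.47 per Mb of the list. Of 25 genes of the oligodendrocyte lineage only Nfasc did (4%), also with 22 or 15.0 per Mb, and neurons express this adhesion molecule of the node of Ranvier too. The marker genes of microglia (10), endothelium and pericytes (10), pituitary (8), choroid plexus (7), liver (14) and skeletal muscle (13) and the 22 ribosomal protein genes held none. These lists have little intronic sequence, from 0.0383 Mb to 0.776 Mb in all. In whole brain, fewer cells of a type and less RNA per cell cannot be told apart, and a list of peaks gives no level for a gene without one.

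Of the 18 genes of m6A writers, erasers and readers and of the Prrc2 family, only Prrc2b, a paralog of Prrc2a, held selected peaks, 7 in number. That is 5.56% of the list, against 2.74% of all genes. Prrc2b spans 83.46 kb, and 4.02% of genes of 50 to 100 kb were hosts. It held no shared or replicate 2 only intronic peak. In its exons replicate 1 had 0 peaks and replicate 2 had 11.

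The sequences of the selected peaks were moderately rich in G and C. Their median GC content was 47.0% (quartiles 43.5 and 50.5%), below the 49.7% of shared and the 49.0% of replicate 2 only intronic peaks. To compare with the surrounding sequence, the central 200 bases of each peak were set against all 792569 windows of 200 bases in the exon-free sequence of the host genes, with each gene weighted by its peaks. The mean GC content was 46.9% in the peaks and 43.7% in the windows. Repeat-masked bases made up 17.1% and 23.1%.

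GGAC was present on the host gene's strand in the central 200 bases of 1762 peaks (49.0%, 95% Wilson interval 47.4 to 50.6%, counting error only). It was present in 40.4% of the windows. The share was 49.8% in shared and 45.0% in replicate 2 only intronic peaks. The sequence GTCC, which is GGAC on the opposite strand, was in 45.4% of peaks and 42.4% of windows. GGACT, which contains GGAC, was in 18.5% and 15.3%. GC content moves with these shares. When windows were taken at the GC content of the peaks in classes of 5 percentage points, without weighting by gene, 44.6% held GGAC. A match is a description of the letters and not a measured site of m6A. A run of 15 A or T occurred in 14 peaks (0.389%).

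By chromosome, the peaks were most numerous on chromosome 16 (408, or 11.2 per Mb of exon-free sequence of protein-coding genes), which carries Rbfox1, Grin2a and Kalrn. Chromosome 9 held 366 and chromosome 2 held 332. The X chromosome held 15, or 0.355 per Mb.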

How the data were processed

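Prrc2a RIP-seq peak lists of 2 replicates of mouse brain were analysed. Per the study's methods, the authors trimmed reads (Cutadapt, Trimmomatic) and used TopHat to align them to mm10. They retained unique alignments of mapping quality at least 20 and called peaks with MACS2. Each replicate has its own peak list. The submitters' processing notes give TopHat2 2.0.9 and MACS2 2.0.10, and the methods name later versions. The values the authors deposited are peak positions and fold enrichment, a linear ratio of immunoprecipitate over a control that is not named. The methods state an FDR cutoff for Prrc2a binding regions. No strand, depth or FDR of each peak came with the values, so their precision is unknown. The study's results count peaks identified in both replicates, a set to which the peaks described here do not belong.

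Positions (both ends counted from 1) were compared with GENCODE M21 in Python 3.11.15 with numpy 2.4.6. A peak was shared when at least 1 base overlapped. A midpoint in several protein-coding genes (57 peaks) was given to the gene of shortest span. Intervals on shares are Wilson intervals from scipy 1.17.1. They treat peaks as independent and do not measure the spread between libraries. Sequences came from RefSeq's GRCm38 assembly, the build of the lists. Placement was checked on 800 simulated peaks, of which 0 were misplaced. No statistical test was run, because each set comes from 1 library. Alternatives changed the overlap rule, the annotation, the transcript and the unit.

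The peaks and gene lists were chosen with earlier results of these data known. Genes were named by rule: the 10 with most peaks, the 5 densest, the hosts of the 10 most enriched peaks and of the 3 longest and 3 shortest introns, and the leading genes of each list. Some genes that the rule selects are not reported here. Other genes, named for an intron, a distance or an absence, were chosen after their values were seen.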

Additional observations from a re-analysis of the deposited data

How the results depend on the processing

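Of 88 recomputed values (8 results under 11 alternatives), 61 stayed within their range and 27 moved. The range was 1.5 times for counts and, for medians and shares, the 95% counting interval, which treats peaks as independent. The alternative without the 5 leading genes was chosen after seeing the data. Keeping fold enrichments of at least 4 left 2099 peaks in 369 genes, with a median fold of 4.74 that the filter itself raised. The shares were 60.3% in introns longer than 100 kb and 6.77% under 1 kb from an exon. Counting a replicate 2 peak within 1 kb as shared gave 59.5% in introns longer than 100 kb and 7.77% under 1 kb from an exon. Keeping peaks at least 1 kb from exons gave a median intron of 141.8 kb, 60.5% in introns longer than 100 kb and, by construction, 0% under 1 kb. Numbering introns on the longest-span transcript gave 162.5 kb and 63.0% in introns longer than 100 kb. Merging peaks less than 1 kb apart gave a median fold of 4.35, a median intron of 121.9 kb, 41.0% in the first intron and 12.2% under 1 kb. Each merged run was scored at its most enriched peak and at its smallest distance to an exon. That scoring by construction pushes the fold up and the distance down. Without the 5 leading genes the median intron was 119.9 kb, with 41.9% in the first intron, 55.3% in introns longer than 100 kb and 10.7% under 1 kb. The mirrored rule gave 834 peaks, a median fold of 4.06, a median intron of 43.1 kb, 50.8% in the first intron, 28.7% in introns longer than 100 kb, 19.3% under 1 kb and 45.0% with GGAC. Apart from the mirrored rule and the fold filter, the number of peaks and of host genes stayed within 1.5 times under each alternative, and the share with GGAC moved only under the mirrored rule. Beyond what is set by construction, the cause of the moves was not tested. Depth, the control library and the FDR of each peak are unknown here, so how close unlisted regions came to the replicate 2 threshold cannot be seen.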
